A study of Homo sapiens with 6 samples.

Results

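The genes described here build the centromere and the kinetochore and run the spindle checkpoint, and they were measured by RNA-seq after knockdown of NONO in HCT116, a cell line from a human colorectal carcinoma. They were listed by name, as 48 symbols of genes known for these roles, and the rule uses no measured value, although the list was drawn up with earlier results of these data known. All 48 were found among the 62492 genes of the files and passed the filter on low counts, which 17000 genes passed. The comparison had 3 libraries of cells transfected with siControl and 3 of cells transfected with siNONO, each siRNA at 20 nM and each library from poly(A) RNA of cells labelled as wild type. The libraries of a group are described as biological replicates. Each of Sets 1, 2 and 3 holds 1 library of either kind, and what the libraries of a Set share is not given. Only 1 siNONO reagent was used, so the loss of NONO and any other effect of that reagent cannot be told apart. The time between transfection and RNA extraction is not given in the sources used here.

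Chromosomes are pulled apart by microtubules that hold on to them at the kinetochore, a protein assembly built on the centromere. Chromatin with the histone variant CENP-A marks the site, the constitutive centromere-associated network (CCAN) is bound to it through the cell cycle, and the outer kinetochore, with the KMN network (KNL1, Mis12 and Ndc80 complexes) at its core, is assembled on the CCAN for mitosis and grips the microtubules. Kinetochores without microtubules hold back anaphase through the spindle checkpoint, while the chromosomal passenger complex releases faulty attachments and shugoshins protect the cohesion between sister centromeres. Many of these genes are transcribed mainly late in the cell cycle, through the CHR and CCAAT elements of their promoters. For this description the list was divided into 3 classes: the inner centromere (18 genes, for CENP-A and its loading and the CCAN), the outer kinetochore (18 genes, for the KMN network, the Ska complex and the corona) and the checkpoint (12 genes, for the Mad and Bub proteins, the passenger complex and the shugoshins).

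The RNA of most of these genes was less abundant after NONO knockdown. Only RNA was measured in these libraries, so a fall of a gene, subunit or complex means a fall of RNA. Protein levels are not known from these data. Of the 48 genes, 46 were lower in siNONO, none was higher and 2, PMF1 and MAD1L1, did not pass the test (adjusted p at most 0.05 in the quasi-likelihood test of edgeR on the estimated counts, blocked by Set, with the Benjamini-Hochberg correction taken over the 17000 genes). Over all genes tested, 23.4% were lower and 23.2% higher by the same rule. On TPM, which RSEM scales for length and library size, limma called 3614 genes lower and 1643 higher, so the near-even split over all genes of the count test was not seen on that scale. A fall of at least 0.5 on the log2 scale was called for 27 of the 48 genes and for 6.29% of all genes. Over the 48 genes the log2 fold changes had a median of -0.55, which is 68.4% of the siControl level, and quartiles of -0.77 and -0.38. The median over all genes tested was -0.0048, with quartiles of -0.22 and 0.21, and 7.66% of them lay at or below the median of the list.

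The fall was seen in each Set. The median of the within-Set log2 ratios was -0.59, -0.57 and -0.54 in Sets 1, 2 and 3, and 46 of the 48 genes were lower in all 3 Sets. The exceptions were CENPW, with a log2 ratio of 0.01 in Set 3, and MAD1L1, with 0.06 in Set 2. In 44 genes every siNONO library lay below every siControl library in CPM (the count of a gene relative to its library's TMM-scaled total), as in 24.0% of all genes tested. CENPW, CENPB, MIS12 and MAD1L1 had overlapping groups. Without the libraries of Set 2 the test called 41 of the 48 genes lower, and without those of Set 1 it called 44. Of all genes tested in those fits, 17.8% and 19.1% were called lower. Leaving out the siControl library of Set 2 alone gave 41 (17.8% of all genes tested), and leaving out its siNONO library gave 42 (18.8% of all genes tested). With the Set as a block, these fits nearly repeat the fit without Set 2. Across the 48 genes the ratios of one Set followed those of another, with a Pearson correlation of 0.903 between Sets 1 and 2, 0.843 between Sets 1 and 3 and 0.840 between Sets 2 and 3. These are descriptions across genes, which share their libraries.

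**Figure D1:**
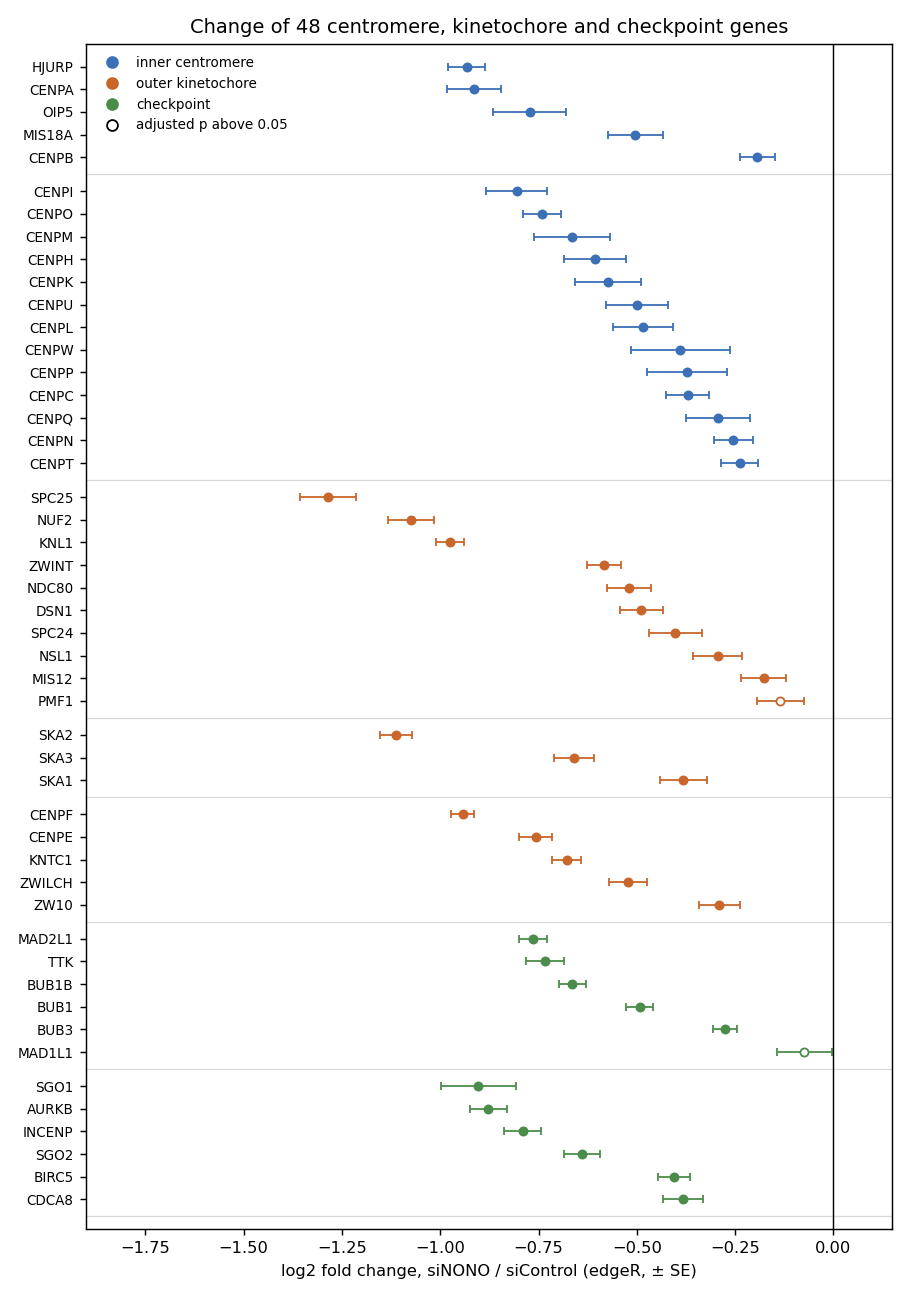
Log2 fold change of each of the 48 genes (x axis, siNONO over siControl, edgeR, with standard errors as bars), in blocks for CENP-A and its loading, the CCAN, the KMN network, the Ska complex, the corona, the Mad and Bub proteins, and the passenger complex with the shugoshins. All 48 points lie left of 0, from -1.28 for SPC25 to -0.07 for MAD1L1, and the 2 open points, PMF1 and MAD1L1, did not pass the test.

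In RNA from whole cultures, fewer cells in the phases in which these genes are transcribed and less RNA per cell cannot be told apart. CPM and TPM are relative to the library, so they do not show a change of the total RNA per cell either. The targeted gene was at 496, 495 and 516 CPM in siControl and 89.5, 95.5 and 100 CPM in siNONO, a log2 fold change of -2.40. Total counts ran from 21765393 to 32659002 per library, and single genes of the list had between 139 counts (CENPW) and 11227 counts (CENPF) in a library. Transcripts of the mitochondrial genome held 8.80% to 9.15% of the counts in siControl and 9.61% to 10.8% in siNONO, and their part in the results was not tested. Of the epithelial markers, EPCAM rose (log2 fold change 0.32, adjusted p = 3.52e-06 by edgeR) and KRT8, KRT18 and CDH1 did not pass the test, and their summed level was 2083 to 2218 TPM in siControl and 1934 to 2144 TPM in siNONO. Of the 5 markers of other cell types that had a row, the leukocyte markers PTPRC and CD3E had 1 count each in 1 siControl library and 0 in the other 5, COL3A1 was at most 0.41 TPM, COL1A1 at 16.2 to 19.0 TPM did not pass the test, and ACTA2, a smooth muscle actin, rose from 4.82 to 5.92 TPM up to 12.1 to 12.5 TPM (adjusted p = 1.34e-06 by edgeR). The 5 summed to 21.4 to 25.1 TPM in siControl and 28.3 to 31.0 TPM in siNONO, and their part in the results was not tested.

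Promoter sequences of 39 of the 48 genes were held in the RefSeq table (GRCh38.p14), as windows of 300 bases from 250 before to 50 after the annotated start. KNL1, BIRC5, BUB3, CENPH, CENPL, CENPM, KNTC1, MIS18A and TTK had no entry. Parts of 4 of these windows are printed from 150 bases before the start to 30 bases from it, on the strand of the gene, 5′ to 3′, because they show how the motifs are placed in 1 gene of each class with a called fall and, last, in the gene with the smallest change. Capitals mark TTTGAA (the core of the cell cycle genes homology region, CHR, which the DREAM and MuvB complexes bind) and CCAAT, written ATTGG where it is on the other strand (the site of NF-Y). The genes shown were picked with their motif matches known and do not show how common a motif is. In the checkpoint class SGO1 and AURKB fell further than INCENP, and their windows hold no CHR core. The sequences printed are those of HJURP at chr2:233854506-233854685 on the minus strand, SPC25 at chr2:168890401-168890580 on the minus strand, INCENP at chr11:62123861-62124040 on the plus strand and MAD1L1 at chr7:2232916-2233095 on the minus strand.
HJURP: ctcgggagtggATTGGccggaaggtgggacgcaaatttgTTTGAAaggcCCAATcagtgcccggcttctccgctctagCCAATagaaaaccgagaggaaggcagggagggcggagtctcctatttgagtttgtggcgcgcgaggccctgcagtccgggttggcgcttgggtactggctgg
SPC25: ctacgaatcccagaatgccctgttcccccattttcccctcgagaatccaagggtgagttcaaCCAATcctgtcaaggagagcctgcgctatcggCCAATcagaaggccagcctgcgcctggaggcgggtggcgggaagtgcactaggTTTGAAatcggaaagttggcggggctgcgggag
INCENP: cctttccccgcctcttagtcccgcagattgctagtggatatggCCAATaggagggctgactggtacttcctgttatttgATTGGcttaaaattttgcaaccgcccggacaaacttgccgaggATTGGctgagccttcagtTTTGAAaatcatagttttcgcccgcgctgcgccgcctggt
MAD1L1: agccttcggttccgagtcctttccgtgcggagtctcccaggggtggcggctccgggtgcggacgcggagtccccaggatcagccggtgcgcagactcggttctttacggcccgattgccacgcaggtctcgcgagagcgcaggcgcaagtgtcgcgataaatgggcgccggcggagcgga

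The CHR letters, TTTGAA on either strand, were in 17 of the 39 windows (43.6%), against 15.4% of all 27305 windows and 12.1% of the 15842 windows of protein-coding genes. CCAAT on either strand was in 25 of the 39 (64.1%), against 35.7% of all and 36.4% of protein-coding windows. Both were in 11 windows (28.2%), against 6.08% of all and 5.02% of protein-coding ones. In 14 of the 17 genes with a CHR a copy lay within 50 bases of the start, and this was not counted for the windows of other genes. An E2F site, sought as TTTCCCGC, TTTGGCGC or TTTCGCGC on either strand, was in 4 windows, those of CENPA, OIP5, CENPU and MIS12 (10.3%, against 2.79% of all and 3.77% of protein-coding ones). The palindromic NRF1 motif was in 1, that of DSN1 (2.56%, against 1.36% of all and 1.75% of protein-coding ones). Copies of different motifs shared bases in 1 of the 39 windows, that of CDCA8, where a CHR and a CCAAT copy meet.

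The windows with a CHR were 5 of 14 in the inner centromere, 8 of 16 in the outer kinetochore and 4 of 9 in the checkpoint class. The median log2 fold change was -0.66 over the 17 genes with a CHR, which ran from -1.28 to -0.25, and -0.49 over the 22 without it, which ran from -1.11 to -0.07. With and without CCAAT it was -0.57 (25 genes) and -0.50 (14 genes). SPC25 has a CHR that starts 3 bases before the start, with CCAAT boxes beginning 88 and 56 bases before it, and INCENP has a CHR 10 bases before the start behind CCAAT boxes at 107, 71 and 28 bases. HJURP has its CHR 111 bases before the start, between CCAAT boxes. SKA2, with the second lowest fold change, has 5 CCAAT boxes and no CHR, and CENPI, CENPE, NSL1, CENPT, CENPB, CENPP and MAD1L1 had no copy of the CHR, CCAAT, E2F or NRF1 letters in the window. A match is a description of the letters, and the absence of a match concerns these windows only.

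The inner centromere class starts with the histone and the proteins that place it. All 18 of its genes were lower in siNONO, with a median log2 fold change of -0.50, and the 5 genes of CENP-A and its loading had a median of -0.77. When the libraries of Set 2 were left out, 14 of the 18 were called, and 17.8% of all genes tested were lower in that fit. CENPB (-0.14, adjusted p = 0.0651 by edgeR), CENPP, CENPQ and CENPW were not called.

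HJURP, the chaperone that deposits CENP-A (minus strand of chromosome 2, 234742062 to 234763212 of GRCh37), was at 58.7, 62.6 and 55.9 CPM in siControl and at 30.9, 31.1 and 30.7 CPM in siNONO. The siNONO libraries lay within a narrow span, far below those of siControl. HJURP fell to 52.4% (log2 fold change -0.93, standard error 0.0471, adjusted p = 1.13e-08 by edgeR's quasi-likelihood test). CENPA, the histone itself (plus strand of chromosome 2, 26987157 to 27023935), was at 19.5, 19.3 and 19.0 CPM in siControl and at 9.82, 10.6 and 10.3 CPM in siNONO. It fell to 53.1% (log2 fold change -0.91, standard error 0.0683, adjusted p = 3.25e-07), and its exons share 138 bases with those of SLC35F6 on the same strand. The RNAs of the histone and its chaperone fell by close amounts. The ratio of CENPA to HJURP in TPM was 0.760, 0.699 and 0.772 in siControl and 0.768, 0.878 and 0.864 in siNONO, with overlapping groups.

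OIP5 and MIS18A, subunits of the Mis18 complex that prepares the centromere for new CENP-A, fell to 58.5% and 70.5% (log2 fold changes of -0.77 and -0.50). The exons of OIP5 overlap those of NUSAP1 and OIP5-AS1 on the opposite strand, which had mean counts of 2491 and 3830 against 227 for OIP5, and the strand setting of the counting is not given in the sources used here. CENPB, which binds the CENP-B box of alpha-satellite DNA, was at 66.1, 64.3 and 71.9 CPM in siControl and at 56.9, 53.0 and 67.7 CPM in siNONO. The groups overlapped, with Set 3 high in both, while siNONO was lower within each Set. Its fall, to 87.4%, was the smallest of the 5 (log2 fold change -0.19, standard error 0.0444, adjusted p = 0.00308 by edgeR), and without the Set as a block it did not pass (adjusted p = 0.105).

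The 13 CCAN genes were all lower, with a median of -0.48. The 4 genes of the CENP-H, CENP-I, CENP-K and CENP-M subcomplex had a median of -0.64 and a summed level of 63.7 ± 2.44 TPM in siControl and 39.5 ± 1.66 TPM in siNONO (SD, n = 3 per group). CENPI, lowest of the CCAN, was at 17.5, 17.0 and 16.4 CPM in siControl and at 9.54, 9.06 and 10.6 CPM in siNONO. It fell to 57.2% (log2 fold change -0.81, standard error 0.0773, adjusted p = 3.01e-06 by edgeR). CENPM, CENPH and CENPK followed at 63.1%, 65.7% and 67.2%, so the RNAs of the 4 subunits fell by similar amounts.

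In the subcomplex of CENP-O, CENP-P, CENP-Q and CENP-U, which holds a docking site for Plk1, the median was -0.44, but its genes ranged from CENPO at 59.8% to CENPQ at 81.6% of siControl. CENPO and CENPP overlap genes with higher counts on the opposite strand, ADCY3 and IPPK. CENPU was at 70.7% and CENPP at 77.3%, and the call of CENPP was lost with DESeq2 (adjusted p = 0.128) and with limma on TPM. CENPL and CENPN, whose proteins bind CENP-A nucleosomes together, were at 71.5% and 83.8%. CENPC, the central scaffold of the CCAN, was at 77.3% of siControl (log2 fold change -0.37). Over the whole list, exons of 18 genes overlap another gene, 5 on the same and 14 on the opposite strand (CENPN on both), and in 14 the other gene had at least 20% of the count.

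CENPT and CENPW are histone-fold partners that link the CCAN to the Ndc80 complex. CENPT, with the smallest fall of the CCAN, was at 39.4, 38.6 and 44.4 CPM in siControl and at 32.8, 33.4 and 37.5 CPM in siNONO. Its libraries did not overlap between the groups, and it fell to 84.8% (log2 fold change -0.24, standard error 0.0468, adjusted p = 0.00106 by edgeR). CENPW, with the fewest counts of the list, was at 7.98, 8.33 and 6.33 CPM in siControl and at 5.31, 5.68 and 6.37 CPM in siNONO. The siNONO library of Set 3 was the highest of its group and lay above the siControl library of the same Set. The log2 fold change of CENPW was -0.39 with a standard error of 0.125 (adjusted p = 0.022 by edgeR), and it was -0.28 without Set 1 (adjusted p = 0.159) and -0.29 without Set 2 (adjusted p = 0.156).

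In the outer kinetochore class 17 of 18 genes were lower, with a median log2 fold change of -0.55 and the lowest single values of the list. The KMN network, the microtubule-binding core, was lower in 9 of 10 genes, and its median was -0.50. The medians of its complexes lay apart, a difference that was described and not tested. The 4 genes of the Ndc80 complex had a median of -0.80 (-0.79, -0.86 and -0.72 in the Sets), and their summed level went from 104 ± 4.40 to 53.2 ± 3.90 TPM (SD, n = 3 per group), or to 51.1%. The 4 genes of the Mis12 complex had a median of -0.24 (-0.24, -0.19 and -0.34 in the Sets), and their summed level went from 104 ± 0.685 to 80.9 ± 4.13 TPM, or to 77.5%. The genes of the 2 complexes were thus at nearly the same summed RNA level in siControl, and those of the Ndc80 complex were the lower in each siNONO library.

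SPC25, which with SPC24 anchors the Ndc80 complex to the inner kinetochore (minus strand of chromosome 2, 169690642 to 169769881 of GRCh37), was at 26.1, 25.1 and 24.7 CPM in siControl and at 9.58, 11.1 and 10.5 CPM in siNONO. The 6 libraries fell into separate ranges with little spread inside either. Its fold change was the lowest of the 48 genes, to 41.0% (log2 fold change -1.28, standard error 0.0706, adjusted p = 2.39e-08 by edgeR's quasi-likelihood test). NUF2, a subunit of the microtubule-binding end (plus strand of chromosome 1, 163236366 to 163325554), was at 38.4, 40.7 and 32.0 CPM in siControl and at 17.6, 18.5 and 16.7 CPM in siNONO. It fell to 47.5% (log2 fold change -1.08, standard error 0.0583, adjusted p = 2.12e-08).

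Their partners in the same complex had smaller falls. NDC80, which pairs with NUF2, fell to 69.7% (log2 fold change -0.52), and SPC24, which pairs with SPC25, fell to 75.7% (log2 fold change -0.40). The ratio of SPC24 to SPC25 in TPM was 0.405, 0.422 and 0.474 in siControl and 0.701, 0.962 and 0.799 in siNONO. That of NDC80 to NUF2 was 0.691, 0.765 and 0.892 in siControl and 0.979, 1.02 and 1.13 in siNONO. In both pairs every siNONO library was above every siControl library. The call of SPC24 was lost with limma on log2(TPM + 1) (adjusted p = 0.0525).

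KNL1, the scaffold onto which the checkpoint proteins are recruited (plus strand of chromosome 15, 40886218 to 40956540), was at 107, 113 and 96.8 CPM in siControl and at 54.6, 56.7 and 49.6 CPM in siNONO. It fell to 50.9% (log2 fold change -0.97, standard error 0.0361, adjusted p = 6.55e-10 by edgeR), with nearly the same log2 ratio, -0.97, -0.99 and -0.96, in Sets 1, 2 and 3. ZWINT, which binds KNL1 and was the most abundant of the KMN genes at 82.0 ± 1.89 TPM in siControl, fell to 66.7%.

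The Mis12 complex joins the CCAN to the rest of the KMN network. DSN1 fell to 71.3% (log2 fold change -0.49), NSL1 to 81.5% (-0.29) and MIS12 to 88.4% (-0.18). MIS12 was at 26.8, 26.3 and 21.9 CPM in siControl and at 23.3, 22.2 and 20.8 CPM in siNONO, with overlapping groups and an adjusted p of 0.0231 by edgeR, which became 0.119 without the Set as a block and 0.213 without Set 2. Its exons share 301 bases with DERL2 on the opposite strand. PMF1, the remaining subunit, was at 21.1, 21.1 and 22.2 CPM in siControl and at 19.7, 19.8 and 19.0 CPM in siNONO. Its siNONO libraries all lay below those of siControl, but it did not pass the test (log2 fold change -0.14, standard error 0.0598, adjusted p = 0.0839 by edgeR), whereas limma on log2(TPM + 1) gave -0.21 with an adjusted p of 0.0291.

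**Figure D2:**
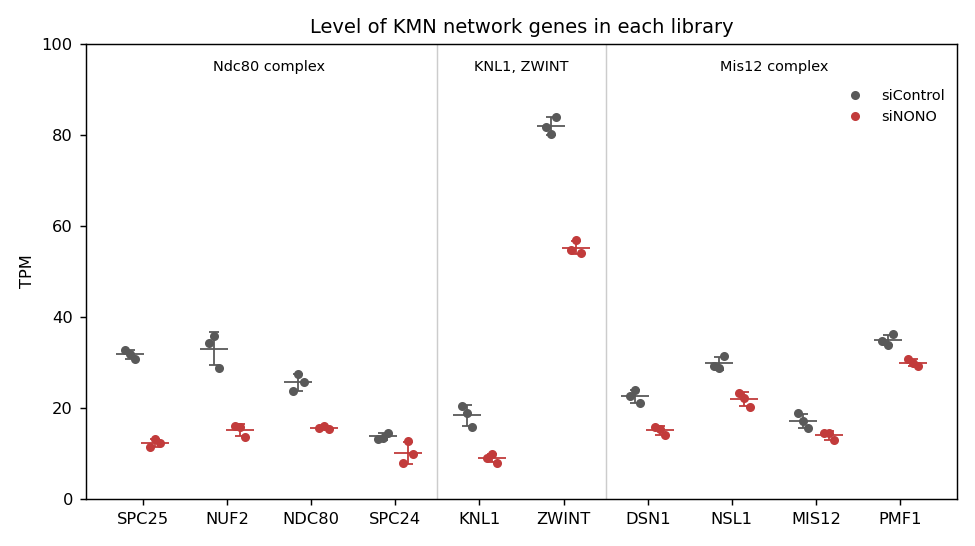
TPM (y axis) of the 10 KMN network genes in each library, siControl in grey and siNONO in red, with lines for the mean and bars for the SD (n = 3 per group). In proportion the groups are widest apart for SPC25 (31.7 and 12.3 TPM) and NUF2 (up to 35.8 and down to 13.6 TPM) in the Ndc80 complex and closest for MIS12 (17.2 and 13.9 TPM) and PMF1 (34.9 and 29.9 TPM) in the Mis12 complex.

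The Ska complex, which helps Ndc80 follow shortening microtubules, was lower in all 3 genes, with a median of -0.66. SKA2 (minus strand of chromosome 17, 57187218 to 57232621) was at 82.1, 86.5 and 71.9 CPM in siControl and at 38.2, 39.5 and 33.4 CPM in siNONO. It fell to 46.3%, with log2 ratios of -1.10, -1.13 and -1.10 in the Sets (log2 fold change -1.11, standard error 0.0403, adjusted p = 5.39e-10 by edgeR). SKA1 was at 23.6, 25.7 and 22.3 CPM in siControl and at 18.5, 18.7 and 17.7 CPM in siNONO, without overlap. It fell to 76.8% (log2 fold change -0.38, standard error 0.0587, adjusted p = 0.000167), and SKA3 to 63.3%. The ratio of SKA2 to SKA1 in TPM was thus 5.47, 5.88 and 6.63 in siControl and 3.93, 4.06 and 3.75 in siNONO. SKA2 was the most abundant of the Ska genes in every library.

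The corona is the outermost layer, shed once microtubules are attached, and all 5 of its genes were lower, with a median of -0.68. CENPF, a large coiled-coil protein of late G2 and mitosis (plus strand of chromosome 1, 214776528 to 214837917), was at 341, 364 and 324 CPM in siControl and at 175, 189 and 170 CPM in siNONO. It fell to 52.0% with the smallest adjusted p of the list (log2 fold change -0.94, standard error 0.0294, adjusted p = 1.57e-10 by edgeR). CENPE, the kinesin that carries chromosomes to the metaphase plate, fell to 59.2% (log2 fold change -0.76), and its ratio to CENPF in TPM overlapped between the groups.

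KNTC1, ZWILCH and ZW10 form the RZZ complex, which brings dynein and Mad1 to the kinetochore. KNTC1 fell to 62.5% and ZWILCH to 69.6%. ZW10 was at 37.7, 42.0 and 41.1 CPM in siControl and at 33.2, 32.8 and 32.6 CPM in siNONO. Its groups did not overlap and it fell to 81.8%, the smallest change of the corona (log2 fold change -0.29, standard error 0.0521, adjusted p = 0.000543 by edgeR). The summed level of the RZZ genes was 85.8 ± 3.53 TPM in siControl and 57.8 ± 1.84 TPM in siNONO (SD, n = 3 per group).

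In the checkpoint class 11 of 12 genes were lower, with a median of -0.65. The 6 kinases and Mad and Bub proteins had a median of -0.58 with 5 lower. MAD2L1, whose protein Mad2 inhibits Cdc20 in the mitotic checkpoint complex, was at 106, 107 and 94.7 CPM in siControl and at 61.5, 64.6 and 54.9 CPM in siNONO. It fell to 58.9% (log2 fold change -0.76, standard error 0.0363, adjusted p = 6.48e-09 by edgeR). MAD1L1, whose protein holds Mad2 at the kinetochore, was at 17.3, 16.5 and 19.0 CPM in siControl and at 16.7, 17.2 and 16.1 CPM in siNONO. In CPM the groups overlapped and no change was called (log2 fold change -0.07, standard error 0.0707, adjusted p = 0.428), and without Set 3 the value was 0.0075. In TPM the gene was at 12.03, 16.08 and 13.7 in siControl and at 11.42, 11.65 and 9.9 in siNONO, without overlap. Its exons share 3004 bases with an unnamed gene on the same strand. Mad1 and Mad2 act as partners, and the ratio of MAD1L1 to MAD2L1 in TPM was 0.131, 0.182 and 0.177 in siControl and 0.233, 0.248 and 0.216 in siNONO.

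TTK, the kinase Mps1 that starts checkpoint signalling, fell to 60.2%, BUB1B, which encodes BubR1, to 63.1% and the kinase BUB1 to 71.1%. BUB3, which carries Bub1 and BubR1 to KNL1, fell to 82.6% (log2 fold change -0.28, standard error 0.0298, adjusted p = 8.63e-06 by edgeR). It was the most abundant gene of the list, at 219, 222 and 238 TPM in siControl and at 172, 177 and 186 TPM in siNONO. The ratio of BUB3 to BUB1B in TPM was 3.42, 3.17 and 3.78 in siControl and 4.36, 4.94 and 4.67 in siNONO, without overlap, while the ratio of BUB3 to BUB1 overlapped between the groups.

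All 6 genes of the chromosomal passenger complex and the shugoshins were lower, with a median of -0.71. AURKB, the kinase of the complex (minus strand of chromosome 17, 8108051 to 8113918), was at 52.6, 57.5 and 61.7 CPM in siControl and at 27.2, 32.7 and 33.7 CPM in siNONO. It fell to 54.4% (log2 fold change -0.88, standard error 0.047, adjusted p = 1.95e-08 by edgeR). INCENP, the scaffold that activates Aurora B, fell to 57.8% (log2 fold change -0.79), close to the fall of the kinase, with overlapping ratios of 0.349 to 0.397 in siControl and 0.375 to 0.422 in siNONO in TPM. The targeting subunits had smaller falls, BIRC5 (survivin) to 75.5% and CDCA8 (borealin) to 76.7%.

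CDCA8 was at 54.8, 55.2 and 61.1 CPM in siControl and at 38.8, 46.3 and 46.4 CPM in siNONO (log2 fold change -0.38, standard error 0.0508, adjusted p = 5.04e-05 by edgeR). The ratio of CDCA8 to AURKB in TPM was 0.421, 0.374 and 0.421 in siControl and 0.616, 0.566 and 0.532 in siNONO, so borealin mRNA was higher relative to the kinase in every siNONO library. SGO1, which protects centromeric cohesion with PP2A, was at 19.7, 20.7 and 16.3 CPM in siControl and at 8.42, 11.8 and 10.3 CPM in siNONO. Its log2 ratio ran from -1.22 in Set 1 to -0.65 in Set 3, a wide spread, around a fold change of -0.90 (standard error 0.0949, adjusted p = 6.63e-06). SGO2 fell to 64.2%.

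The 3 classes were then set side by side. Their medians were -0.50, -0.55 and -0.65 for the inner centromere, the outer kinetochore and the checkpoint, and in each Set the checkpoint had the lowest median (-0.64, -0.64 and -0.62, against -0.57, -0.54 and -0.47 for the inner centromere and -0.55, -0.59 and -0.51 for the outer kinetochore). The single genes of a class were spread more widely than the classes were apart, with quartiles of -0.72 and -0.37 in the inner centromere, -0.90 and -0.39 in the outer kinetochore and -0.77 and -0.40 in the checkpoint. In every class most genes had groups that did not overlap, 16 of 18, 17 of 18 and 11 of 12. The order of the medians was not tested, since genes are not replicates.

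**Figure D3:**
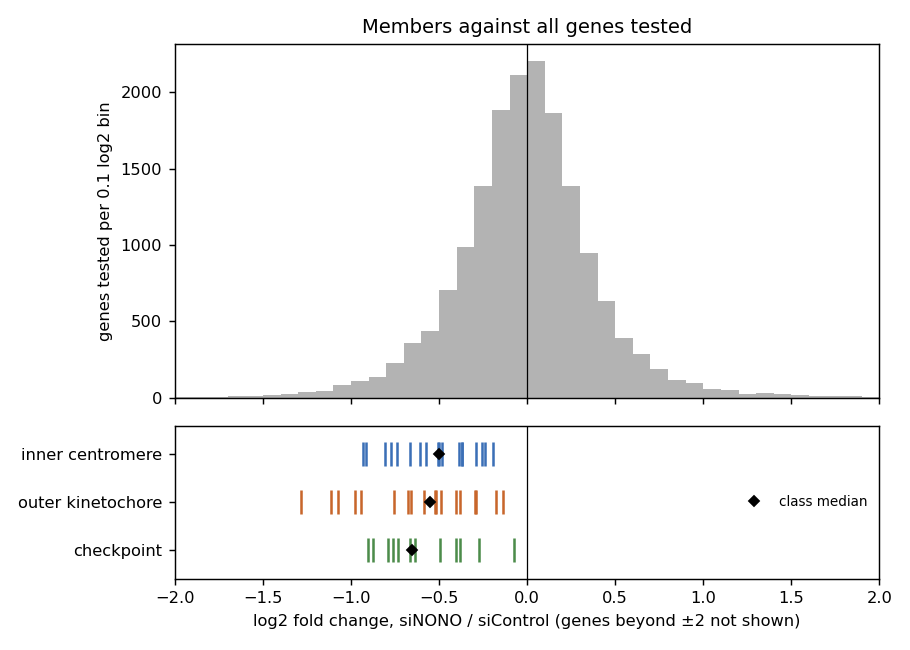
Upper panel, number of genes per 0.1 of log2 fold change (x axis) among the 17000 tested; lower panel, the genes of each class as ticks with the class median as a diamond. The ticks lie between -1.28 and -0.07, while the bulk of all genes lies around -0.0048, and the ranges of the classes overlap.

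Levels add to this picture. In TPM the genes ranged from CENPP (4.30 in siControl, 3.28 in siNONO) to BUB3 (226 and 178), with a median gene at 25.6 TPM in siControl and 15.1 TPM in siNONO. Genes at 50 TPM or more were 10 in siControl and 4 in siNONO, and those under 10 TPM were 1 and 10. The summed level of all 48 was 1768, 1790 and 1767 TPM in siControl and 1127, 1140 and 1142 TPM in siNONO. The sum varied little between libraries of a group and was 64.0% in siNONO. On log2(TPM + 1) the median of all genes tested was -0.07, so percentages of TPM run somewhat below those of the count test. The inner centromere summed to 393 ± 6.58 and 259 ± 8.46 TPM (66.0%), the outer kinetochore to 613 ± 14.0 and 372 ± 16.4 TPM (60.7%), and the checkpoint to 769 ± 8.06 and 505 ± 18.5 TPM (65.6%; SD, n = 3 per group for each).

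**Figure D4:**
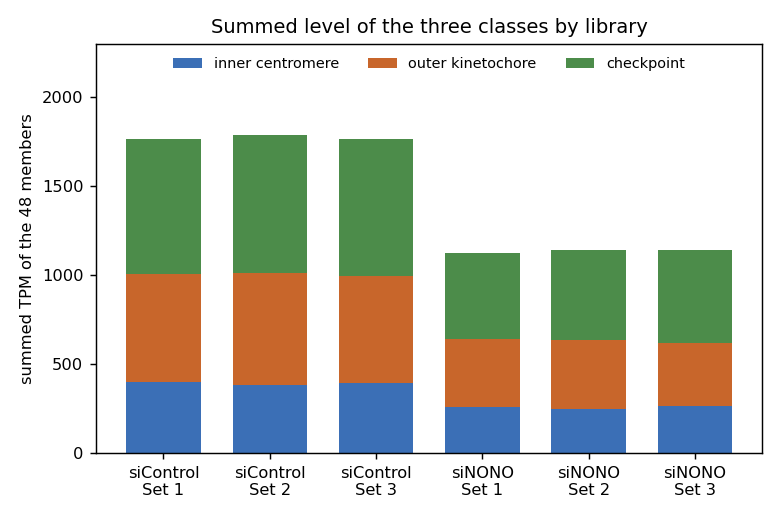
Summed TPM (y axis) of the 48 genes in each library, stacked by class. The 3 siControl libraries reach 1767 to 1790 TPM and the 3 siNONO libraries 1127 to 1142 TPM, and the shares of the classes stay between 21.6% and 23.3% (inner centromere), 30.9% and 35.1% (outer kinetochore) and 43.0% and 45.8% (checkpoint).

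The share of the outer kinetochore was 34.4%, 35.1% and 34.04% in siControl and 33.5%, 33.7% and 30.9% in siNONO, which places every siNONO library below siControl. The shares of the inner centromere overlapped between the groups, and so did those of the checkpoint. Fold changes followed neither level nor length closely. Across the 48 genes the Pearson correlation of the log2 fold change was -0.154 with the log2 TPM in siControl and -0.133 with the log2 effective length, and Spearman's rho was -0.165 and -0.0839.

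The RNAs of subunits that work together did not always keep their proportions. Of 20 ratios of partner genes in TPM, picked by hand from known complexes with earlier results of these data known, 13 had groups that did not overlap and 7 had groups that did. How often ratios of other gene pairs keep the groups apart was not counted, and several of the 20 ratios share a gene. The count of 13 therefore does not show that partner genes differ from other pairs. With 3 libraries against 3 an exact permutation test cannot go below p = 0.1, so the ratios are given without a test. Those of MIS12 to DSN1 were 0.833, 0.714 and 0.740 in siControl and 0.917, 0.942 and 0.919 in siNONO. The ratios that overlapped included CENPA to HJURP, INCENP to AURKB, CENPE to CENPF, SGO1 to SGO2, CENPT to CENPW, BUB3 to BUB1 and ZWILCH to KNTC1.

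**Figure D5:**
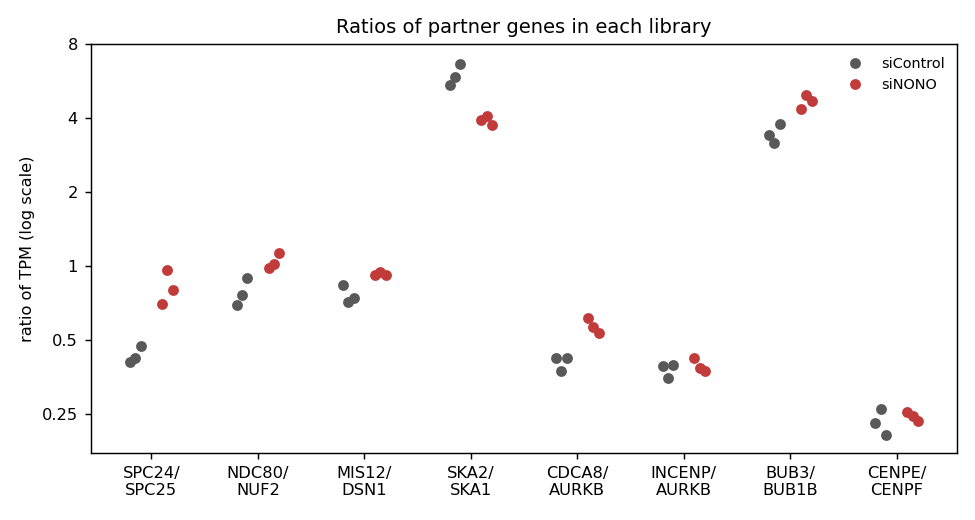
Ratio of the TPM of partner genes in each library (y axis, log scale), siControl in grey and siNONO in red. SPC24 to SPC25 lies at 0.405 to 0.474 in siControl and 0.701 to 0.962 in siNONO, and INCENP to AURKB and CENPE to CENPF overlap.

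The mean transcript length of a gene, weighted by RSEM over its isoforms, served as a second readout that the counts of a gene do not fix. None of the 48 genes changed in effective length at an adjusted p of at most 0.05, and none of the 17000 did (limma on log2 length, 0%, smallest adjusted p = 0.401), while 1 of the 17000, not of the list, was called without the block. At an unadjusted p under 0.05 there were 5 of the 48 (10.4%) and 8.80% of all genes. SKA2 had the largest mean fall, 11.4%, from 1232, 1101 and 986 bases in siControl to 956, 993 and 981 bases in siNONO, where Set 1 and Set 2 account for most of it. MAD1L1 had the largest mean rise, 12.4%, with 2049, 1414 and 1971 bases in siControl and 1958, 1918 and 2159 bases in siNONO, so its groups overlapped.

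Other genes of the pathway had a smaller median change. In a list of 14 further kinetochore and checkpoint genes, 12 were lower (85.7%, against 23.4% of all genes tested) and none higher (23.2% of all genes were), with a median log2 fold change of -0.36. The lowest were ERCC6L (-0.71), a translocase of anaphase bridges, and HASPIN (-0.68), the kinase whose histone mark recruits the passenger complex. PLK1 fell by 0.46 and CDC20, the target of the checkpoint, fell by 0.22 on the log2 scale. BOD1 (-0.03) and MAD2L1BP (0.16, adjusted p = 0.0594 by edgeR), which takes Mad2 out of the checkpoint complex, did not pass the test.

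The anaphase-promoting complex, the ubiquitin ligase that the checkpoint restrains, was mixed. The list of 17 genes holds, beside subunits, the coactivator FZR1 and the E2 enzymes UBE2C and UBE2S, which were all lower. Of the 17 genes, 8 were lower (47.1%, against 23.4% of all genes tested) and 2 were higher (23.2% of all genes were). The other 7 did not pass, and the median log2 fold change was -0.04. The summed TPM of the 17 was 1278 ± 34.4 in siControl and 984 ± 24.9 in siNONO (SD, n = 3), or 77.0% of siControl. Most of that fall lay in the E2 enzymes, with mean TPM of 306 and 165 for UBE2S and 165 and 103 for UBE2C. ANAPC1, the largest scaffold subunit, was at 118, 126 and 128 CPM in siControl and at 78.4, 75.7 and 78.8 CPM in siNONO (log2 fold change -0.67, adjusted p = 3.16e-08 by edgeR), and UBE2S, which extends the ubiquitin chains, had a log2 fold change of -0.65. ANAPC13 (0.31, adjusted p = 0.000261) and CDC23 (0.12, adjusted p = 0.0295) rose.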

How the data were processed

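RNA-seq libraries of HCT116 cells (3 siControl, 3 siNONO) were made with a stranded mRNA kit. The authors used STAR and RSEM (version 1.3.1) with the GENCODE version 34 annotation of GRCh37. They deposited estimated counts, which are not normalized, TPM, which RSEM scales for gene length and library size, and the length and effective length of each gene. Whether RSEM used strand is not given in the sources used here.

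Counts were rounded and fitted with edgeR (version 4.0.16, edgeR 3 form of the quasi-likelihood test), TMM scaling, filterByExpr, a block for the Set and the Benjamini-Hochberg correction over 17000 genes, since the study used edgeR with batch as a covariate. CPM values use the TMM-scaled totals, and ratios within a Set add 0.1 CPM. A percent of siControl stated with a log2 fold change is the fitted fold change. Effective lengths were tested with limma (version 3.58.1). Locations came from GENCODE version 44 mapped to GRCh37 and promoters from RefSeq. The scripts were tested on simulated data.

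The Sets pair the libraries. Over 11705 genes, the deviations of same-numbered libraries from their group means correlated at 0.404, 0.213 and 0.493, although Sets 1 and 2 also correlated with each other, at 0.167 and 0.114. Each library was counted as its own sample, since the libraries of a group are described as biological replicates. Counts of replicates differed beyond sampling noise in each pair (chi-square per degree of freedom of 2.82 to 9.87). This spread alone does not show that the libraries are independent samples. The biological coefficient of variation was 3.51%.

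The members, their classes, the further lists and the partner ratios were chosen with earlier results of these data known. Genes with values in every library were the lowest and the highest log2 fold change of each of 7 groups of the list, the 10 lowest of all and those that did not pass, and from each further list the 2 lowest and 2 highest were named, except for values that are not reported here. CENPW, MIS12, BUB3, PLK1 and CDC20 were added after their values were seen. MYBL2, UBE2C and FZR1 were also named outside that rule. Alternatives were DESeq2 (version 1.42.0), edgeR with the size factors of DESeq2 or with totals alone, without the block, with other filters or in its version 4 form, limma on log2(TPM + 1) and log2(TPM + 0.1), each library and each Set left out, and the RZZ genes counted with the checkpoint.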

Additional observations from a re-analysis of the deposited data

How the results depend on the processing

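Over 18 alternatives 11.8% (without a filter on low counts) to 25.9% (at least 10 counts in every library) of all genes tested were called lower. The number of genes of the list called lower ran from 41 to 46, none was called higher in any, and 40 genes were called lower in every one. The other 6 (CENPW, CENPP, CENPQ, MIS12, CENPB and SPC24) lost the call in at least 1 alternative, and PMF1 gained it with limma on TPM. The 18 are not all separate checks. With the Set as a block, a library left without its partner adds nothing to the comparison of the siRNAs. Leaving out 1 library thus nearly repeats leaving out its Set. MAD1L1, never called, ran from -0.14 to 0.0075 when libraries were left out and turned positive without Set 3 (0.0075), without siControl of Set 3 (0.0074) and without siNONO of Set 3 (0.0042). Over all 18 alternatives its lowest log2 fold change was -0.33. The Set as a block was part of the test. Without this replicate block 3068 genes were lower and 3096 higher over all genes tested, 44 of the 48 were lower, and CENPB (adjusted p = 0.105) and MIS12 (adjusted p = 0.119) were not called. DESeq2 called 2610 genes lower and 2596 higher, against 3985 and 3939 with edgeR. Limma called 1638 genes higher on log2(TPM + 0.1) and 1643 on log2(TPM + 1), so that 31.2% and 31.3% of its calls were higher, against 49.7%, and the median of all genes was -0.09 and -0.07. On log2(TPM + 0.1) the medians were -0.61 for the list, -0.57 for the inner centromere, -0.64 for the outer kinetochore and -0.75 for the checkpoint, and on log2(TPM + 1) they were -0.58 for the list, -0.62 for the outer kinetochore and -0.72 for the checkpoint. The checkpoint median was -0.67 with library size alone, -0.63 without a filter and -0.64 with the RZZ genes counted in it. Leaving out a library or a Set gave -0.66 to -0.63 for the checkpoint and -0.56 to -0.49 for the inner centromere. The cause of these shifts was not tested. CENPW had the fewest counts of the list, which limits its precision.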

Other observations

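Genes that act before and above the kinetochore moved as well. All 11 genes of replication licensing were lower in siNONO, where 23.4% of all genes tested were, and their median log2 fold change was -0.39. The lowest were MCM6 (-0.61), a subunit of the replicative helicase, and ORC1 (-0.61), which marks origins, and the smallest falls were those of MCM5 (-0.27) and GMNN (-0.26), which encodes the licensing inhibitor geminin. Their libraries kept the groups apart in 10 of the 11 genes, and 24.0% of all genes had every siNONO library below every siControl library.

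Of 14 regulators of cell-cycle transcription, 8 were lower (57.1%, against 23.4% of all genes tested), 4 were higher (23.2% of all genes were) and 2 did not pass the test (edgeR, Benjamini-Hochberg). FOXM1, an activator of late cell-cycle genes, was at 130, 130 and 146 CPM in siControl and at 50.9, 58.9 and 60.1 CPM in siNONO (log2 fold change -1.26, adjusted p = 3.62e-10), and its groups lay far apart. E2F2, an activator of G1/S genes, had a log2 fold change of -0.78, and MYBL2, which joins MuvB at CHR promoters, had -0.66. CDKN1A, the p21 inhibitor of cyclin-dependent kinases, was at 133, 137 and 150 CPM in siControl and at 372, 375 and 411 CPM in siNONO. It rose by 1.46 on the log2 scale (adjusted p = 4.96e-12). These values stand beside those of the kinetochore genes, and their part in the fall of those genes was not tested.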
